A study of Mus musculus with 6 samples.

Results

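The acrosome and sperm-egg interaction genes described here are 49 mouse genes, chosen by symbol for what their proteins are known to do in the acrosome, on the sperm surface or at the egg. Of the 49, 45 had at least 1 contig in the deposited tables, with 80 contigs in all, among 12114 contigs and 6985 gene symbols of the whole series. A contig is 1 annotated transcript to which reads were aligned. No contig was listed under Gopc, Fimp, Equatn or Sof1. Equatn is another spelling of Eqtn, which was measured, and the genes of SOF1 and FIMP were listed under other symbols, Llcfc1 and 4930451I11Rik, so that they stood outside the choice by symbol. Of the 45 genes, 23 had 1 contig and 22 had several, up to 5. Each gene is described by its main contig, the one with the most reads over the 6 samples.

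The samples came from adult wild-type C57BL/6J male mice. There were 3 samples of pachytene and diplotene spermatocytes (P/D spermatocytes, germ cells late in meiotic prophase) and 3 of round spermatids (RS, the haploid cells that follow meiosis), all sorted from testis by DNA content and light scatter. No mouse carried a transgene or received a treatment. Each sample was a pool of the mRNA of 3 mice. The study took spermatocytes and spermatids from shared mice, but whether P/D and RS samples of one number hold the same 3 mice is not given in the sources used here. Barcoding put all P/D samples in 1 direct RNA nanopore library and all RS samples in another, and cell type and library therefore cannot be told apart. Direct RNA sequencing threads native RNA through a pore from its 3′ end, so 1 read gives both a count and the poly(A) tail length of that molecule.

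The acrosome is a vesicle that forms from the Golgi apparatus in round spermatids and spreads over the front of the nucleus. It holds enzymes and matrix proteins that are released when sperm meet the egg coat, the zona pellucida, and its inner membrane carries proteins for binding to and fusing with the egg. Many of these genes are transcribed well before the protein is needed, since transcription ends as spermatids elongate, and the poly(A) tail of a stored mRNA is one of the features tied to its stability and translation.

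The sequences that follow are the last 30 bases before the annotated 3′ end, where the tail is added, of contigs that the results below turn on. They are written 5′ to 3′ from GENCODE vM21 on GRCm38, with every poly(A) signal AATAAA and variant ATTAAA in capitals, and each window lies in the last exon of its transcript.
Ly6k, chr15:74796874-74796903, minus strand: ccttctaATTAAAtttgtttttccttcgtc
Zpbp, chr11:11279626-11279655, minus strand: tagaagcAATAAActtactttgaaaaactg
Crisp2, chr17:40764734-40764763, minus strand: ttctttcAATAAAgaactcaagctaccaca
Acrbp main contig, chr6:125054165-125054194, plus strand: cactaaagccttcagaaagttgtttctcca
Acrbp contig ENSMUST00000088294, chr6:125063238-125063267, plus strand: gattaccttcaAATAAAatgtttatctgca
Adam3, chr8:24677225-24677254, minus strand: taaagtctatggctgacagtgtacagatgc
Actl7b, chr4:56740005-56740034, minus strand: cagaatttcgcataaaagtttaacctgtaa
Acrv1, chr9:36698814-36698843, plus strand: tcttttttgcAATAAAttgctATTAAAgaa
Spam1, chr6:24801019-24801048, plus strand: gactgAATAAAATAAAatcactagaaaatt
Tex101, chr7:24668007-24668036, minus strand: acacAATAAAattagtgatttgctATTAAA

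Ly6k had the largest tail difference, Zpbp a large gain, the Acrbp contigs different ends, Acrv1 long tails in both cell types, Crisp2 the most reads, Adam3 long tails in P/D despite many reads, Actl7b the shortest tails in RS among contigs with at least 20 reads in every sample, Spam1 the lone shorter tail, and Tex101 the largest fall in level. The Spam1 window holds a pair of overlapping AATAAA. The main contig of Acrbp and that of Actl7b carried neither signal, and the AATAAA of Adam3 began just upstream of its window. In the last 40 bases, 31 of the 45 main contigs carried AATAAA, 5 ATTAAA without it, and 9 neither. These are 68.9%, 11.1% and 20%, beside 61.5%, 14.1% and 24.4% of the 6901 contigs tested for tails that were found in the annotation. The annotated end need not be the end used in these cells, and only the transcript strand was searched.

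The libraries held 244004 to 305950 reads in P/D and 316653 to 474688 in RS. Summed over 11 pachytene and diplotene markers, 0.179% to 0.187% of reads fell on them in P/D and 0.0531% to 0.0626% in RS, with Mlh3 at 0 reads. Over 8 round spermatid markers that are not among the genes described, the shares were 0.0221% to 0.0340% in P/D and 0.250% to 0.274% in RS, with Fam71b at 0. Over 10 markers of elongating and elongated spermatids they were 0.307% to 0.385% in P/D and 2.51% to 3.07% in RS, with Hils1 at 0. The study describes the mRNAs of several of them, those of protamines, transition proteins, Odf1 and Smcp, as transcribed in RS and translated only later. Their sum is therefore no measure of elongated cells in the RS samples. Thus reads of spermatid markers were also present in the P/D samples, and the study's own microscopy found that only part of the cells in the P/D gate were P/D spermatocytes, a clearly smaller share than that of RS in the RS gate. Every P/D value given here is therefore that of a mixed population. Markers of Sertoli cells summed to 0 to 3 reads a sample and those of Leydig cells to 1 to 7, with 4 of 7 and 6 of 7 genes at 0, and all 5 macrophage and blood markers were at 0. Of 7 spermatogonial markers 5 were at 0, and the sum was 0.127% to 0.168% of reads in P/D and 0.125% to 0.129% in RS. Of 7 leptotene and zygotene markers 4 were at 0, and the sum was 0.0488% to 0.0614% in P/D and 0.0376% to 0.0516% in RS. In bulk samples, fewer cells of a type and less RNA per cell cannot be told apart.

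Contigs of these genes with many reads in both cell types gained longer tails in RS, while many others had few reads in P/D spermatocytes and far more in RS. The tail test, a limma fit of per-sample mean tails, took 66 of the 80 contigs, those that reached 10 reads in 2 samples of either cell type and had a mean in at least 2 samples of both. Of these 66, 34 had longer tails in RS at an adjusted p below 0.05, 1 had shorter tails, and 31 were not called. Only 36 of the 66 reached 10 reads in 2 P/D samples. The other 30 entered through their RS reads alone and their P/D means rest on few reads, so the counts over all 66 are a description. Over all 6990 contigs tested, 54.2% were longer in RS and 1.69% shorter. The median difference was 38.0 nt over the members tested and 37.4 nt over all contigs tested. Among the 24 member contigs with at least 20 reads in every sample, all 24 were longer when the fit was confined to contigs with that depth, beside 87.1% of 1827 contigs (2.46% shorter), with medians of 61.0 nt and 49.9 nt. Adam3 passed in that smaller fit and not in the fit of 6990. Of the 57 member contigs with a mean in all 6 samples, 36 had every RS sample above every P/D sample and 2 had every RS sample below, beside 63.6% and 2.72% of 6464 contigs.

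For accumulation, the level of a contig relative to the other contigs of its library, edgeR's quasi-likelihood test took 61 of the 80 contigs. It called 35 higher in RS and 4 lower, beside 32.6% higher and 30.8% lower of 6005 contigs tested. The median log2 fold change of RS over P/D was 1.01 over these 61 contigs and -0.03 over all contigs tested. DESeq2 called 41 of 79 member contigs higher and 2 lower, beside 23.3% and 13.0% of 11022 contigs. Of the 61, 25 did not reach 10 reads in 2 P/D samples and were tested for their RS reads, so these counts too are a description. The 19 contigs not tested had few reads: 0 to 27 summed over the 3 P/D samples and 2 to 60 over the 3 RS samples. They include the main contigs of Pick1, Spaca6 and Tmem95.

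**Figure D1:**
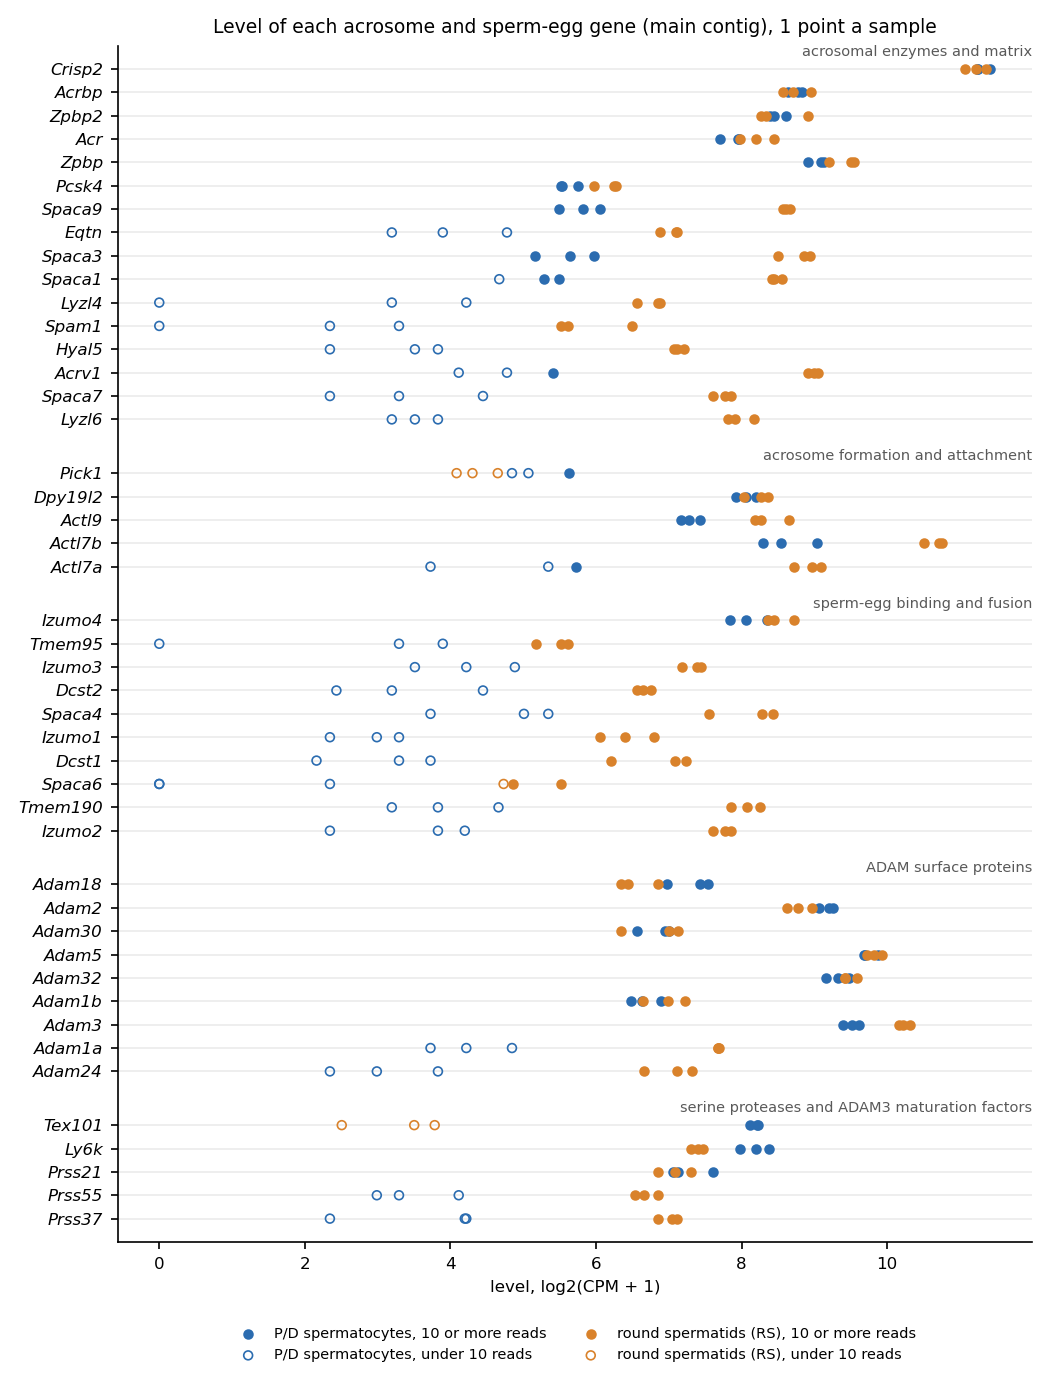
Level of the main contig of each of the 45 genes, as log2(CPM + 1) on the x axis, where CPM is the count scaled to library size with TMM factors; each point is 1 sample, blue for P/D and orange for RS, and open points rest on under 10 reads. Genes are grouped by role and ordered by the difference of their group means; in Acrv1 the 3 RS samples lie far to the right of the 3 P/D samples, while in Crisp2, Acrbp and Adam5 the samples of both cell types overlap, and Tex101 runs the other way.

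Acrosomal enzymes and matrix proteins made up the largest group. Acr encodes acrosin, the acrosomal serine protease. It had 56, 60 and 61 reads in P/D and 85, 107 and 109 in RS, and its mean tails were 120.3, 102 and 112 nt in P/D and 174, 168 and 176 nt in RS. All 3 RS tails exceeded all 3 P/D tails. The group means differed by 61.3 ± 6.87 nt (SE; limma, adjusted p = 7.37e-04), while the log2 fold change of the Acr level was 0.34 ± 0.17 (SE; edgeR, adjusted p = 0.0816). Acrbp, whose product binds the acrosin precursor, had 99, 131 and 97 reads in P/D and 121, 162 and 155 in RS on its main contig. Those tails were 116, 118 and 112 nt in P/D and 198, 187 and 193 nt in RS, a difference of 77.6 ± 5.83 nt (SE). The level of this contig did not pass the test (edgeR, adjusted p = 0.986). Its contig ENSMUST00000088294, whose printed 3′ end differs and holds AATAAA, had 30, 52 and 44 reads in P/D and 48, 57 and 58 in RS and longer tails in both cell types, 137, 154 and 145 nt in P/D and 224, 216 and 233 nt in RS. The contig ENSMUST00000112412, whose annotated end lies 1 base from that of the main contig, had 23, 34 and 29 reads in P/D and 36, 62 and 38 in RS and tails of 90.4, 109 and 97.0 nt in P/D and 195, 195 and 174 nt in RS. All 3 Acrbp contigs were called longer in RS, with no overlap of the groups in any.

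Zpbp and Zpbp2 encode zona pellucida-binding proteins of the acrosomal matrix. Zpbp had 109, 157 and 137 reads in P/D and 170, 317 and 227 in RS, and its tails were 140.5, 133 and 126 nt in P/D and 211, 215 and 210.2 nt in RS. It gained 78.6 ± 6.17 nt (SE; limma, adjusted p = 4.90e-04), and its level rose by a log2 fold change of 0.38 ± 0.13 (SE; edgeR, adjusted p = 0.00975). In RS, 49.5% ± 3.12 (SD, n = 3) of Zpbp reads had tails of 210 nt or more, against 12.1% ± 5.09 in P/D. The main contig of Zpbp2 had 76, 112 and 85 reads in P/D and 140, 137 and 96 in RS, with tails of 127, 129 and 142 nt in P/D and 185, 184 and 189 nt in RS, longer by 52.8 ± 6.46 nt (SE), and its level was not called (edgeR, adjusted p = 0.87). Of its further contigs, ENSMUST00000081033 had 48, 76 and 63 reads in P/D and 42, 84 and 67 in RS and tails of 106, 119.7 and 127 nt in P/D and 175, 179 and 180.4 nt in RS. ENSMUST00000107511 differed from the main contig in level, with 14, 25 and 18 reads in P/D and 32, 81 and 45 in RS and a log2 fold change of 1.01 ± 0.25 (SE; edgeR, adjusted p = 4.99e-04). All 4 Zpbp2 contigs were called longer in RS.

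Crisp2, a cysteine-rich secretory protein of the acrosome and the tail, held the most reads of any gene described. Its main contig had 547, 703 and 671 reads in P/D and 623, 1117 and 747 in RS, and its tails were 136, 135 and 132 nt in P/D and 185, 187 and 188 nt in RS, narrow within each cell type. The difference was 52.3 ± 5.16 nt (SE; limma, adjusted p = 5.57e-04), with no called change in level (-0.08 ± 0.09 (SE) on the log2 scale; edgeR, adjusted p = 0.452). Reads with tails of 30 to 120 nt made up 45.2% ± 0.790 (SD, n = 3) in P/D and 1.38% ± 0.391 in RS, and those of 120 to 210 nt went from 45.2% ± 2.26 to 81.0% ± 0.679. All 5 Crisp2 contigs were called longer. ENSMUST00000232709 had 30, 38 and 28 reads in P/D and 33, 76 and 56 in RS and tails of 138, 119 and 127 nt in P/D and 179, 182 and 189 nt in RS. ENSMUST00000233529, with 24, 45 and 34 reads in P/D and 38, 85 and 73 in RS, was called higher in level (log2 fold change 0.49 ± 0.22 (SE); edgeR, adjusted p = 0.0469), unlike the main contig. Pcsk4, the proprotein convertase of testicular germ cells, had 11 to 13 reads a sample in P/D and 18 to 32 in RS, and was called longer.

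The remaining acrosomal contents were scarce in P/D. Acrv1 encodes SP-10, a protein of the acrosomal matrix. It had 6, 12 and 4 reads in P/D and 153, 205 and 160 in RS, a log2 fold change of 4.11 ± 0.24 (SE; edgeR, adjusted p = 8.32e-19). Its tails, 274, 246 and 225 nt in P/D and 225, 236 and 219.6 nt in RS, overlapped between the cell types and were long in both. Spaca3, a lysozyme-like acrosomal protein, had 14, 10 and 12 reads in P/D and 135, 154 and 154 in RS and tails of 189.9, 199.7 and 188 nt in P/D and 182, 186 and 178 nt in RS. All its RS tails lay below its P/D tails, but the difference did not pass the test (limma, adjusted p = 0.2). Spaca1, a protein of the acrosomal membrane, had 10, 11 and 6 reads in P/D and 101, 146 and 118 in RS and tails of 208, 200 and 178 nt in P/D and 199, 205 and 197 nt in RS, which overlapped. Spaca7, an acrosomal protein released at exocytosis, had 2, 6 and 1 reads in P/D and 63, 83 and 72 in RS and tails of 252, 212 and 184 nt in P/D and 219, 217 and 209 nt in RS.

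Lyzl6 and Lyzl4 belong to the lysozyme-like proteins of sperm. Lyzl6 had 3, 3 and 2 reads in P/D and 83, 102 and 70 in RS, with tails of 189, 231 and 203 nt in P/D and 203, 195 and 188 nt in RS. Lyzl4 had 4, 0 and 2 reads in P/D and 34, 40 and 36 in RS, and its tails were 175 and 116 nt in P/D and 156, 146 and 152 nt in RS, with no tail value in the P/D sample without reads. Hyal5, a sperm hyaluronidase, had 3, 3 and 1 reads in P/D and 40, 57 and 46 in RS and tails of 201, 195 and 178 nt in P/D and 191, 187 and 198 nt in RS. Eqtn, equatorin of the acrosomal membrane, had 6, 4 and 2 reads in P/D and 34, 58 and 43 in RS and tails of 147, 169 and 151 nt in P/D and 169, 162 and 161 nt in RS. In these 4 genes the P/D and RS tails overlapped or could not be ordered for want of P/D reads, and none was called. Their log2 fold changes in level were between 3.02 and 4.51, all called higher.

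Spaca9, a sperm acrosome associated gene, and Spam1, the hyaluronidase PH-20, were called for tails. Spaca9 had 10, 16 and 16 reads in P/D and 113, 161 and 127 in RS on its main contig, with tails of 113, 129 and 103 nt in P/D and 166, 160.4 and 170.0 nt in RS. These did not overlap, and they differed by 50.3 ± 8.20 nt (SE; limma, adjusted p = 0.0028) at a log2 fold change of 2.81 ± 0.21 (SE) in level. Its contig ENSMUST00000102877, with 3, 4 and 1 reads in P/D and 42, 47 and 47 in RS, was not called for tails (limma, adjusted p = 0.0697). Spam1 was the lone contig called shorter, by 50.2 ± 9.64 nt (SE; limma, adjusted p = 0.00832), but the P/D values rest on 2, 0 and 1 reads, and the sample without reads was dropped from its fit. The call was lost when limma blocked on the replicate number (adjusted p = 0.0542) and on a log2 scale (adjusted p = 0.0589), and the sign turned when tails above 300 nt were left out (14.2 nt). The Spam1 contig ENSMUST00000202569, with 1, 1 and 0 reads in P/D and 11, 26 and 10 in RS, was not called (adjusted p = 0.697).

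Genes of acrosome formation and attachment differed in their P/D level. Dpy19l2, a protein of the inner nuclear membrane that anchors the acrosome, had 55, 77 and 72 reads in P/D and 76, 131 and 103 in RS and tails of 148, 126 and 134 nt in P/D and 169, 172 and 184 nt in RS, longer by 38.7 ± 8.03 nt (SE; limma, adjusted p = 0.00741). Its level was not called (edgeR, adjusted p = 0.388). Actl9, an actin-like protein of the sperm head, had 35, 41 and 42 reads in P/D and 116, 124 and 96 in RS, a log2 fold change of 1.08 ± 0.18 (SE; edgeR, adjusted p = 1.61e-06), and tails of 107, 117 and 101 nt in P/D and 159, 162 and 165 nt in RS, longer by 53.2 ± 6.44 nt (SE).

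Actl7a and Actl7b are neighbouring, intronless actin-like genes. Actl7b had 84, 151 and 77 reads in P/D and 487, 618 and 541 in RS, a log2 fold change of 1.99 ± 0.13 (SE; edgeR, adjusted p = 1.05e-16). Its tails were 105, 103 and 98.6 nt in P/D and 131, 122 and 128 nt in RS, a gain of 24.9 ± 5.62 nt (SE; limma, adjusted p = 0.0104), and in RS 46.6% ± 2.71 (SD, n = 3) of its reads still had tails of 30 to 120 nt. Actl7a had 9, 15 and 3 reads in P/D and 158, 179 and 157 in RS, a log2 fold change of 3.76 ± 0.24 (SE), and tails of 149, 143 and 162 nt in P/D and 155, 146 and 152 nt in RS, which overlapped. Pick1, a PDZ protein of vesicle trafficking, had 8 to 11 reads in P/D and 5 to 8 in RS and entered neither test.

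Genes of sperm-egg binding and fusion were, with the exception of Izumo4, scarce in P/D and higher in RS. Apart from Izumo4, those tested for level entered that test through their RS reads alone. Their fold changes are therefore a description of few P/D reads. Spaca6 and Tmem95 were not tested for level. Izumo1 encodes the sperm protein that binds JUNO on the egg. It had 2, 2 and 1 reads in P/D and 32, 28 and 26 in RS, a log2 fold change of 3.60 ± 0.47 (SE; edgeR, adjusted p = 1.30e-08), and tails of 221, 165 and 228 nt in P/D and 212, 188 and 212 nt in RS. Izumo2, of the same family, had 3, 5 and 1 reads in P/D and 67, 83 and 68 in RS, and all its RS tails lay below its P/D tails, at 208, 229 and 182 nt in P/D and 182, 175 and 176 nt in RS. That difference did not pass the test (limma, adjusted p = 0.0885), and 9 reads stood behind the P/D values. Izumo3 had 4, 3 and 7 reads in P/D and 50, 71 and 45 in RS and tails of 175, 161 and 192 nt in P/D and 198, 184 and 169 nt in RS, overlapping. Izumo4 was abundant in both cell types, with 74, 66 and 65 reads in P/D and 122, 140 and 109 in RS. Its tails rose from P/D to RS, at 139.7, 117 and 117 nt in P/D and 153, 169.6 and 167 nt in RS, by 38.6 ± 9.01 nt (SE; limma, adjusted p = 0.0117), and its log2 fold change in level was 0.42 ± 0.16 (SE; edgeR, adjusted p = 0.022).

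Dcst1 and Dcst2 encode membrane proteins that sperm need for fertilization. Dcst1 had 2, 1 and 3 reads in P/D and 39, 31 and 47 in RS and tails of 164, 106 and 156 nt in P/D and 159, 148 and 138 nt in RS. Dcst2 had 1, 6 and 2 reads in P/D and 31, 40 and 31 in RS and tails of 130.5, 183 and 254 nt in P/D and 171, 193 and 164 nt in RS. The P/D tails of both genes rest on few reads, spread widely and enclosed the RS tails. Spaca4, a surface protein with a part in zona binding, had 9, 9 and 3 reads in P/D and 100, 80 and 97 in RS, and its tails, 176, 167 and 168 nt in P/D and 173, 169.6 and 165 nt in RS, lay within a narrow band in both cell types. Tmem190, a membrane protein of the acrosome, had 3, 7 and 2 reads in P/D and 78, 98 and 95 in RS and tails of 174, 151 and 161 nt in P/D and 190.1, 197 and 185 nt in RS, which did not overlap. Its difference was 28.7 ± 7.81 nt (SE; limma, adjusted p = 0.0212), on 12 P/D reads, and was not called when limma blocked on the replicate number (adjusted p = 0.0564). Spaca6 and Tmem95, both needed for fusion with the egg, had 0 to 1 and 0 to 4 reads a sample in P/D and 8 to 13 and 14 to 15 in RS.

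In the ADAM family of sperm surface proteins most members were abundant in both cell types and gained tail length. Adam2 encodes fertilin beta. It had 133, 154 and 150 reads in P/D and 127, 214 and 123 in RS and tails of 128, 119 and 131 nt in P/D and 186, 195 and 195 nt in RS, longer by 66.0 ± 6.30 nt (SE; limma, adjusted p = 5.29e-04). Its level was lower in RS by the test, at a log2 fold change of -0.37 ± 0.13 (SE; edgeR, adjusted p = 0.0153). The second Adam2 contig, ENSMUST00000225667, with 18, 24 and 15 reads in P/D and 9, 29 and 19 in RS, was also longer and was not called for level (adjusted p = 0.202). Adam18 had 42, 36 and 42 reads in P/D and 25, 49 and 25 in RS, a log2 fold change of -0.73 ± 0.23 (SE; edgeR, adjusted p = 0.00523), and tails of 141, 149.6 and 141 nt in P/D and 214, 198 and 219 nt in RS, longer by 66.3 ± 7.57 nt (SE).

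Adam5, Adam30 and Adam32 are further testis ADAMs. Adam5 had 188, 270 and 202 reads in P/D and 244, 414 and 282 in RS and tails of 125, 119 and 116 nt in P/D and 187, 179.8 and 186 nt in RS. Its second contig, ENSMUST00000050300, had 77, 99 and 87 reads in P/D and 87, 152 and 83 in RS and tails of 118, 108 and 111 nt in P/D and 175, 178 and 182 nt in RS. Adam32 had 145, 205 and 140 reads in P/D and 199, 329 and 214 in RS and tails of 125, 125 and 109.9 nt in P/D and 179.6, 179 and 183 nt in RS, and its share of reads with tails of 120 to 210 nt went from 35.4% ± 5.04 (SD, n = 3) to 83.9% ± 3.87. Adam30 had 29, 27 and 30 reads in P/D and 37, 59 and 25 in RS and tails of 95.0, 98.7 and 117 nt in P/D and 162, 185 and 184 nt in RS. In all 3 genes every RS tail exceeded every P/D tail. The group means of the main contigs differed by 60.5 to 73.2 nt, and no main contig was called for level.

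Adam1a and Adam1b encode 2 forms of fertilin alpha, the partner of ADAM2, and differed in P/D level. Adam1b had 20, 34 and 24 reads in P/D and 43, 54 and 31 in RS and tails of 106, 97.6 and 114 nt in P/D and 154, 164 and 156 nt in RS, longer by 52.1 ± 6.83 nt (SE; limma, adjusted p = 0.00121), with no call for level. Adam1a had 4, 8 and 3 reads in P/D and 59, 88 and 64 in RS, a log2 fold change of 3.35 ± 0.30 (SE; edgeR, adjusted p = 8.47e-13), and tails of 187, 169.8 and 160.1 nt in P/D and 169.6, 169.8 and 178 nt in RS, which overlapped. The difference between the paralogs was not tested. Adam24 had 3, 2 and 1 reads in P/D and 29, 68 and 43 in RS and tails of 215, 185 and 179 nt in P/D and 185, 181 and 180.3 nt in RS.

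Adam3, a surface protein that sperm need to pass into the oviduct and bind the zona, was abundant in P/D and yet had long tails there. It had 153, 225 and 180 reads in P/D and 333, 545 and 371 in RS, a log2 fold change of 0.72 ± 0.11 (SE; edgeR, adjusted p = 3.45e-07). Its tails were 176, 169 and 167 nt in P/D and 186, 184 and 187 nt in RS, without overlap, and the difference of 15.4 ± 5.52 nt (SE) just missed the threshold (limma, adjusted p = 0.0543). It passed under several other settings, among them the median tail (19.5 nt, adjusted p = 0.0239) and the fit confined to contigs with at least 20 reads in every sample (adjusted p = 0.00489). Reads with tails of 30 to 120 nt made up 16.1% ± 2.67 (SD, n = 3) in P/D, against 53.0% ± 1.73 for Adam5 and 50.9% ± 4.31 for Adam2.

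Tex101 and Ly6k are among the testis proteins known to be needed for the maturation of ADAM3, and the level of both was lower in RS. Tex101, a GPI-anchored germ cell protein, fell from 67, 80 and 73 reads in P/D to 3, 2 and 4 in RS, a log2 fold change of -4.98 ± 0.31 (SE; edgeR, adjusted p = 2.00e-17). Tex101 passed the count filter only through its P/D reads, so this fold change is a description of few RS reads. Its tails were 150.3, 137 and 133 nt in P/D and 134, 136 and 208 nt in RS, where the RS values rest on 9 reads. Ly6k, its GPI-anchored partner, had 57, 84 and 81 reads in P/D and 51, 72 and 49 in RS, a log2 fold change of -0.80 ± 0.18 (SE; edgeR, adjusted p = 1.11e-04). Its tails were the shortest of these genes in P/D and gained the most: 80.0, 81.7 and 72.9 nt in P/D and 176, 174 and 179.6 nt in RS, a difference of 98.5 ± 5.64 nt (SE; limma, adjusted p = 4.90e-04). Reads of 30 to 120 nt fell from 71.6% ± 6.87 (SD, n = 3) to 12.3% ± 4.70. The second Ly6k contig, ENSMUST00000168815, with 15, 12 and 15 reads in P/D and 8, 12 and 14 in RS, gained 88.6 ± 8.75 nt (SE) and missed the threshold for level (adjusted p = 0.0591).

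Of the serine proteases, Prss21, testisin, had 44, 38 and 34 reads in P/D and 39, 67 and 36 in RS and tails of 128, 108 and 97.0 nt in P/D and 163, 141 and 186 nt in RS. The groups did not overlap but the RS samples lay far apart, and the difference was 52.2 ± 13.7 nt (SE; limma, adjusted p = 0.0186). In RS its reads divided into 38.5% ± 10.7 (SD, n = 3) with tails of 30 to 120 nt, 22.8% ± 10.7 of 120 to 210 nt and 35.0% ± 3.36 of 210 nt or more. Prss37 had 4, 5 and 1 reads in P/D and 38, 49 and 43 in RS and tails of 218, 117 and 185 nt in P/D and 156, 136 and 131 nt in RS. Prss55 had 2, 2 and 4 reads in P/D and 29, 39 and 36 in RS and tails of 170.3, 222 and 116 nt in P/D and 157, 149 and 166 nt in RS. Both were higher in RS, at log2 fold changes of 3.23 ± 0.37 (SE) and 3.22 ± 0.40 (SE), and neither was called for tails.

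**Figure D2:**
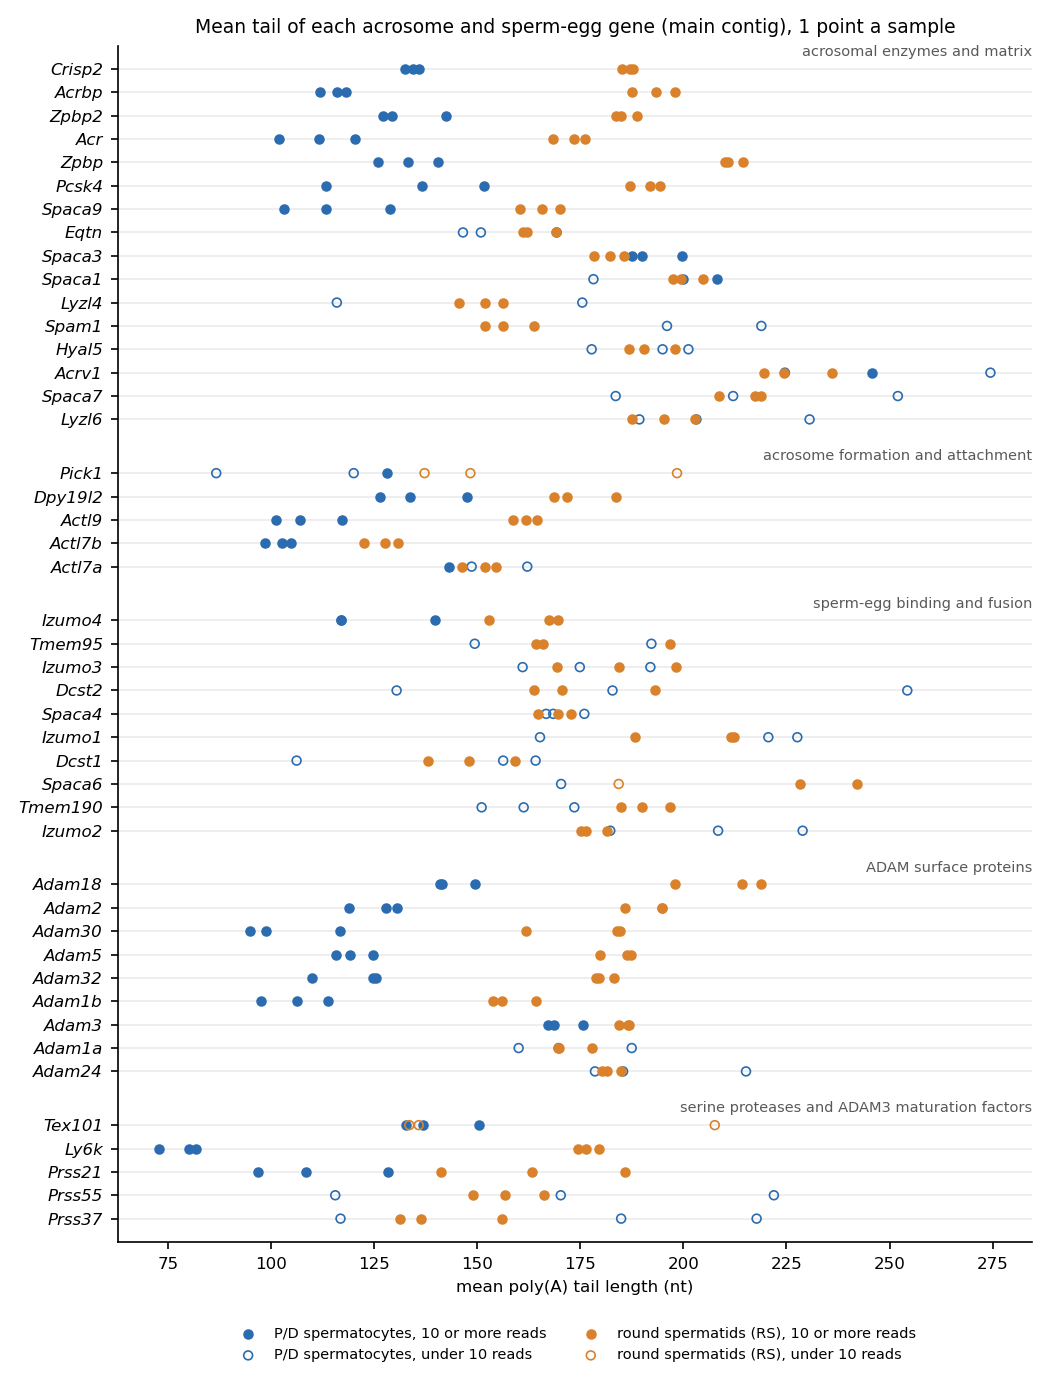
Mean poly(A) tail length in nt on the x axis for the main contig of each of the 45 genes, 1 point a sample, blue for P/D and orange for RS; open points rest on under 10 reads, and a sample without reads has no point. Ly6k runs from 78.2 nt (mean of 3 samples) in P/D to 177 nt in RS, and Acr, Zpbp and most ADAM genes separate in the same way. Among genes with open P/D points, Hyal5 and Spaca4 overlap, while Tmem190 and Izumo2 do not.

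By level, 28 of the 61 contigs tested were called at least 4-fold higher in RS and 33 were not. Of all 5916 contigs tested for both tails and level, 1036 were called so. The 4-fold line was drawn after the values were seen. The contig just inside it was Lyzl4 ENSMUST00000077706, with a log2 fold change of 2.44, and the one just outside was Actl7b, with 1.99. Of the 28, 25 did not reach 10 reads in 2 P/D samples, the others being Spaca1, Spaca3 and the main contig of Spaca9. Their tail differences therefore rest on few P/D reads. Where these differences are counted or plotted against the levels, that is a description only. All 33 others reached 10 reads in 2 P/D samples.

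**Figure D3:**
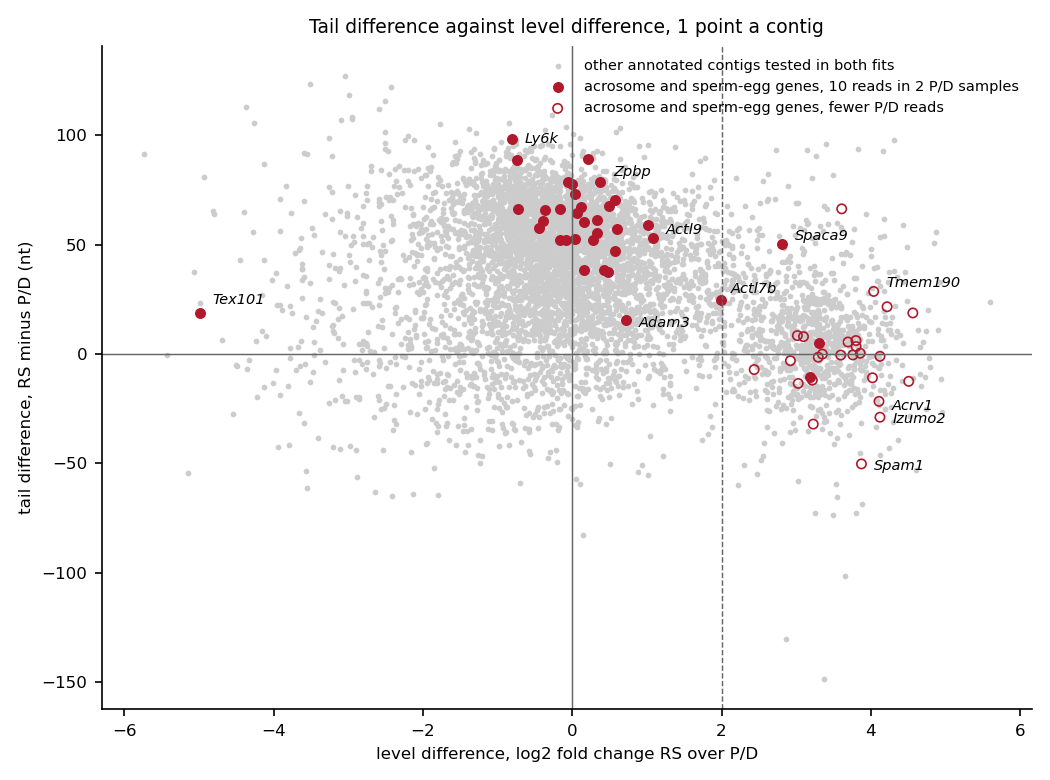
Tail difference in nt (y axis) against log2 fold change in level (x axis), both RS against P/D, 1 point a contig tested in both fits; red points are the 61 contigs of acrosome and sperm-egg genes, open where they did not reach 10 reads in 2 P/D samples, grey points all others, and the dashed line marks a 4-fold higher level in RS. Red points left of the dashed line are all filled and lie above 0, from Adam3 at 15.4 nt to Ly6k at 98.5 nt. Those right of it are open but for 3, so their tail differences rest on few P/D reads; gene names mark main contigs.

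Pooled as single reads, the 28 contigs together held 84 to 146 reads a sample in P/D and 1619 to 2127 in RS. Of these reads, 63.0% ± 4.38 (SD, n = 3) in P/D and 65.8% ± 1.47 in RS had tails of 120 to 210 nt, and 15.8% ± 7.39 and 9.56% ± 1.12 had tails of 30 to 120 nt. Their mean tail was 173 ± 11 nt in P/D and 181 ± 2.47 nt in RS. The P/D values of the 28 are thus a description of few reads. The other 33 contigs held 2353 to 3125 reads a sample in P/D and 3460 to 5452 in RS. In them the share at 120 to 210 nt went from 40.8% ± 0.990 to 69.5% ± 0.856, and that at 30 to 120 nt from 48.1% ± 0.251 to 11.1% ± 0.472. The mean tail went from 127 ± 2.05 nt to 177 ± 1.76 nt.

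The reads of the round spermatid markers that are not among these genes had mean tails of 139 ± 9.62 nt in P/D, on 60 to 104 reads a sample, and 144 ± 2.89 nt in RS. The 28 contigs took 0.0310% to 0.0488% of reads in P/D and 0.448% to 0.511% in RS, beside 0.0221% to 0.0340% and 0.250% to 0.274% for those markers. The part of spermatids in the P/D samples in the long P/D tails of these contigs was not tested.

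**Figure D4:**
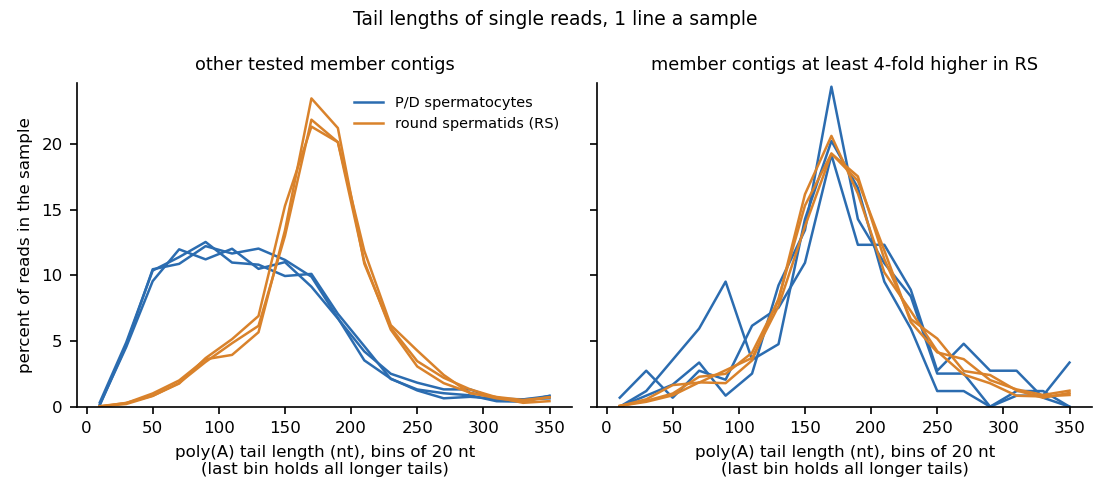
Percent of reads (y axis) by tail length in bins of 20 nt (x axis), 1 line a sample, blue for P/D and orange for RS, with the other 33 tested member contigs on the left and the 28 at least 4-fold higher in RS on the right. On the left the P/D lines are broad between 40 and 200 nt and the RS lines peak between 160 and 200 nt; on the right the lines of both cell types peak between 160 and 180 nt, with the P/D lines drawn from under 150 reads each.

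All reads of the 80 contigs together had tails of 120 to 210 nt in 41.7% ± 0.713 (SD, n = 3) of cases in P/D and 68.2% ± 0.264 in RS. That gain of 26.5 percentage points was 10.5 when the class was bounded at 120 and 180 nt. Over all deposited reads the shares of 120 to 210 nt were 29.6% ± 0.938 and 67.5% ± 0.993, every RS sample above every P/D sample (exact permutation test, two-sided p = 0.1, the smallest that 3 samples against 3 can give). With bounds of 120 and 180 nt, the shares of all deposited reads were 22.5% to 23.5% in P/D and 49.2% to 50.1% in RS. Those of the 80 contigs were 31.3% to 33.3% and 41.9% to 43.2%. The gain of the 80 contigs was smaller than that of all deposited reads with either pair of bounds. Tails of 210 nt or more made up 20.9% ± 0.181 of the members' reads in RS, beside 9.94% ± 0.783 of all reads. In P/D these shares were 9.74% ± 1.40 and 6.41% ± 0.396. For the other acrosome and fertilization genes described next they were 17.5% ± 0.995 in RS and 6.36% ± 0.316 in P/D. The 80 contigs took 1.03% to 1.08% of all reads in P/D and 1.64% to 1.65% in RS, and without the 28 contigs 0.982% to 1.04% and 1.14% to 1.19%.

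Beside these genes stood 94 others of acrosome formation, exocytosis and fertilization, of which 61 had a contig, 100 contigs in all. Of their 66 contigs tested for tails, 35 were longer in RS and 1 shorter, beside 54.2% and 1.69% of all 6990 contigs tested. The median difference was 34.8 nt, beside 37.4 nt over all contigs tested. Of their 61 contigs tested for level, 28 were higher and 13 lower, beside 32.6% and 30.8% of all 6005 contigs tested. The main contigs of these other genes that reached 20 reads in each of the 6 samples numbered 21. In the fit confined to that depth 87.1% of 1827 contigs were longer, and so were all 21. The largest gains among those were in Dkkl1, an acrosomal protein, with 112 ± 2.12 nt (SD, n = 3) in P/D and 200.5 ± 1.36 nt in RS, Man2b2, an acid mannosidase, with 124 ± 8.08 nt (SD, n = 3) in P/D and 199 ± 4.78 nt in RS, and Lypd4, a GPI-anchored sperm protein, with 106 ± 3.41 nt (SD, n = 3) in P/D and 178 ± 0.869 nt in RS. The smallest were in Prss39, a serine protease, with 153 ± 6.74 nt (SD, n = 3) in P/D and 173 ± 2.90 nt in RS, Ssmem1, with 108 ± 4.89 nt (SD, n = 3) in P/D and 142 ± 5.73 nt in RS, and Tex22, with 103 ± 10.7 nt (SD, n = 3) in P/D and 138 ± 2.83 nt in RS.

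By level, Adam25 had 1, 0 and 1 reads in P/D and 31, 32 and 20 in RS, a log2 fold change of 4.74 ± 0.58 (SE; edgeR, adjusted p = 2.42e-09). Plcz1, the sperm phospholipase that activates the egg, had 3, 1 and 2 reads in P/D and 50, 61 and 51 in RS, a log2 fold change of 4.25 ± 0.39 (SE; edgeR, adjusted p = 1.38e-12). Adam6a had 0, 2 and 0 reads in P/D and 13, 22 and 23 in RS, a log2 fold change of 4.22 ± 0.61 (SE; edgeR, adjusted p = 1.11e-07). The largest falls were in 3 testis serine proteases: Prss44, with 31, 26 and 24 reads in P/D and 3, 9 and 6 in RS, Tmprss12, with 9, 11 and 15 reads in P/D and 7, 5 and 4 in RS, and Prss43, with 24, 17 and 20 reads in P/D and 9, 14 and 6 in RS. Their log2 fold changes were -2.59, -1.54 and -1.51, all past the threshold. Each contig named in this paragraph passed the count filter only through the cell type where it was higher. Its fold change is therefore a description of few reads in the other cell type.

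By role, the tested contigs that were longer in RS numbered 17 of 33 for acrosomal enzymes and matrix, 3 of 4 for acrosome formation and attachment, 2 of 11 for sperm-egg binding and fusion, 9 of 12 for the ADAM family and 3 of 6 for the serine proteases and ADAM3 maturation factors, beside 54.2% of all contigs tested. Those higher in RS numbered 17 of 29, 3 of 4, 10 of 10, 3 of 12 and 2 of 6 in the same order, beside 32.6% of all contigs tested. Contigs with few P/D reads entered these tests through their RS reads, above all in binding and fusion, so the counts by role are a description. Contigs of 1 gene share most of their sequence, so their reads may be divided between them with error, and the paralogs Adam1a and Adam1b, and Spam1 and Hyal5, are close in sequence.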

How the data were processed

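Direct RNA nanopore reads of 3 P/D and 3 RS samples were used, grouped by the cell type in their labels. The authors basecalled the reads with Guppy, demultiplexed them with Deeplexicon, mapped them to the GENCODE transcriptome (GRCm38, mm10 per the labels) with minimap2, estimated tails with Nanopolish and kept reads that passed its quality tag and a demultiplexing confidence limit. The deposited values were raw counts of reads on each contig, not normalized, and every read's tail length (nt). Both tables hold the same reads: 0 of 72684 contig by sample counts differed. The 597 repeat contigs were left out of the tests.

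The members and all lists were chosen with earlier results of these data known. Mean tails per contig and sample were tested with limma 3.58.1 (R 4.3.3) over 6990 contigs that reached 10 reads in 2 samples of either cell type and had a mean in at least 2 samples of both. The count test was edgeR 4.0.16 (TMM, filterByExpr, quasi-likelihood) over 6005 contigs, and DESeq2 1.42.0 was an alternative to it. The SE given for an edgeR log2 fold change is its absolute value divided by the square root of the test's F statistic. It is an approximation, above all for contigs with few reads. Benjamini-Hochberg adjustment ran over all contigs tested, two-sided, with a threshold of 0.05. Both tests were checked on simulated data. Tail classes include their lower and exclude their upper bound. Annotations and 3′ ends came from GENCODE vM21, in which 11344 of 11517 annotated contigs were found. The methods name an earlier GENCODE release of the same build.

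Main contigs that reached 20 reads in each sample of P/D or of RS are given with every sample's values and the others as ranges. Further contigs are named where their call differs from that of the main contig or they hold 20 reads or more in all 6 samples. Of the other acrosome and fertilization genes, main contigs of that depth gave the 3 largest and 3 smallest tail differences, and those past the count threshold the 3 highest and 3 lowest fold changes. Of 27500 member reads, 55 were listed on more than 1 contig. Alternatives were other read filters, medians, a log2 scale, weights by reads, a tail range of 10 to 300 nt, the methods' t-test, other normalizations, gene-level sums, the replicate block and leaving out each sample. The 4-fold line and the use of reads on 1 contig only were chosen after seeing the data. Depth was 244004 to 474688 reads a sample. A contig that just enters the tail test rests on about 10 reads a mean in the cell type that met the read minimum. In the other cell type its means may rest on far fewer.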

Additional observations from a re-analysis of the deposited data

How the results depend on the processing

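The 34 longer contigs numbered 31 to 35 when 1 sample was left out and 24 to 36 under the other contig-level settings, of 24 to 66 contigs tested, and 22 of 44 genes were longer when reads were summed by gene. The 1 shorter contig, Spam1, became 0 with the filter of 20 reads in every sample, with 10 reads in 2 samples of both cell types, on a log2 scale, with tails of 10 to 300 nt and by gene, and 2 with weights by reads. Without P/D replicate 1, 2 or 3 the number was 0, 2 and 3. With tails of 10 to 300 nt Spam1 turned to 14.2 nt. Contigs higher in RS went from 35 to 16 of 31 with at least 10 reads in every sample, which drops contigs scarce in P/D, and contigs lower from 4 to 2 there and 2 by DESeq2. Adam18 and Adam2, lower in RS, and Izumo4, higher, lost their calls by DESeq2 (adjusted p = 0.0603, 0.119 and 0.0784). Without RS replicate 3 the adjusted p was 0.0511 for Adam18 and 0.185 for Adam2, and without RS replicate 1 it was 0.0597 for Adam2 and 0.0889 for Izumo4. Without P/D replicate 2 or 3 it was 0.135 and 0.0720 for Izumo4, and without P/D replicate 1 it was 0.102 for Zpbp. For tails, Prss21 was lost with the median (0.0999), tails of 10 to 300 nt (0.0545), the adjusted methods' t-test (0.0595) and without RS replicate 1 (0.0524). Spaca9 was lost with the median (0.0748), and Tmem190 on a log2 scale (0.0726) and without RS replicate 1 (0.0584) or 2 (0.0636). Of 21 main contigs with no tail call, not counting Adam3, 15 changed sign under some setting, always with an adjusted p of 0.21 or more, and 3 (Acrv1, Izumo2, Prss37) were called shorter under one, each without P/D replicate 2 or 3 or, for Izumo2, also with weights. Of 11 with no level call, 6 changed sign, and Acr, Adam5, Adam32 and Pcsk4 were called higher under some setting. The gain in reads of 120 to 210 nt, 26.5 percentage points, was 26.3 to 26.9 when 1 sample was left out, 10.5 with bounds of 120 to 180 nt and 30.3 with equal weight of 31 contigs. Causes were not tested.

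With the replicate number as a block, 33 contigs were longer, 0 shorter, 35 higher and 5 lower. Spam1 (adjusted p = 0.0542) and Tmem190 (0.0564) lost their tail calls. Same-numbered samples deviated together with correlations of -0.01 to 0.08 for tails and 0.03 to 0.24 for levels, and not every sample correlated best with its own number. P/D and RS cells came from shared mice, but the sources used here do not say that the numbers match across cell types, so both fits are given. Depth limits the contigs scarce in P/D most: 40 of the 80 had under 10 reads in every P/D sample, and their P/D tails are means of few reads.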
